A study of Mus musculus with 15 samples.

Results

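RNA levels were examined for 9 genes of tryptophan breakdown and its sensing, out of the 24891 genes kept from the deposited expression table. The members were chosen by symbol, and all 9 symbols were found. They are IDO1, IDO2 and TDO2, which open the tryptophan ring, AFMID, KMO, KYNU and HAAO, which act on the products, AHR, a receptor for some of those products, and WARS, which loads tryptophan onto its tRNA.

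The 15 libraries were mRNA sequencing of tumors that Tsc2-deficient 105K cells formed under the skin of wild-type C57BL/6J mice, with 3 libraries in each of 5 groups. 105K is a mouse renal tumor line, and its Tsc2 loss, which leaves mTORC1 active, is shared by every group including the controls. Bulk tumors came from cells with a non-targeting shRNA (sh-NC) or with sh-B7-H3 (1). Sorted tumor cells came from sh-NC tumors and from tumors with either B7-H3 shRNA, (1) or (2). Both B7-H3 shRNAs target Cd276, the gene of the immune checkpoint protein B7-H3. The paper's methods describe stable lines made as mixed pools, injected with matrigel into male mice of 6 weeks. They also use the word clones for the cells selected in puromycin. Sorted cells are those that passed a magnetic column while labelled host cells were held back. Age at harvest and pooling of tumors are not given in the sources used here, and although the paper calls the 3 libraries of a group biological samples, nothing says that they came from separate mice, so p-values measure the spread between libraries.

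Most tryptophan that is broken down enters the kynurenine pathway. IDO1, IDO2 and TDO2 each convert tryptophan to N-formylkynurenine, TDO2 mainly in liver and IDO1 in many cells under interferon-γ, the T cell cytokine. In tumors IDO1 is known for depleting tryptophan and raising kynurenine, and both restrain T cells. AFMID makes kynurenine, KMO hydroxylates it, KYNU cleaves the hydroxylated product, and HAAO leads on toward quinolinic acid and NAD. WARS is another gene that interferon-γ is known to induce.

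Levels are given as scaled FPKM, the deposited length- and depth-normalized fragment values divided by a size factor for each library. Differences are on the log2(scaled FPKM + 1) scale, which understates the change of low genes. Testing was limited to genes at 1 scaled FPKM or more in 3 of the libraries compared, and a change was called at a limma adjusted p under 0.05 over all genes tested. Read totals are not in the files. The spacing of the lowest values gave relative depths from 0.469 to 1 of the deepest library, and MIR6236 took 6.01% to 79.7% of a library's summed FPKM. Renal epithelial markers, 8 genes with sums of 810 to 1887, were present in all 15 libraries.

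Host cells differed between the materials. The summed level of 7 leukocyte markers was 148 to 322 in the 6 bulk libraries and 2.00 to 7.0 in 8 of the 9 sorted libraries. The remaining sorted library, sh-B7-H3 (2) replicate 1, reached 184, with 20.5 for 7 T cell markers against at most 0.676 in the other sorted libraries. It stood apart from its group in host cell markers, and the IDO1 and WARS differences from sorted sh-NC are also given without it. Most other results for sorted sh-B7-H3 (2) are given only with it. In bulk tumors, fewer cells of a type and less RNA per cell cannot be told apart.

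The targeted gene was examined first. CD276 ranged from 17.3 to 34.0 scaled FPKM in the 3 sorted sh-NC libraries, and was at 7.29, 14.0 and 11.5 in the libraries labelled sorted sh-B7-H3 (1). It was at 23.3, 25.4 and 25.7 in those labelled sorted sh-B7-H3 (2). The difference from sh-NC was -1.04 ± 0.29 (SE) for sh-B7-H3 (1), with a limma adjusted p of 0.0547, and 0.12 ± 0.23 for sh-B7-H3 (2), with an adjusted p of 0.775. In bulk tumors CD276 was 22.5 ± 1.52 (SD, n = 3) with sh-NC and 21.5 ± 3.36 with sh-B7-H3 (1). The CD276 RNA level was thus lower in each sorted sh-B7-H3 (1) library than in any sorted sh-NC library, but that difference missed the threshold. It was not measurably lower in the libraries labelled sorted sh-B7-H3 (2) or bulk sh-B7-H3 (1). Directions and the word knockdown below refer to libraries by label.

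**Figure D1:**
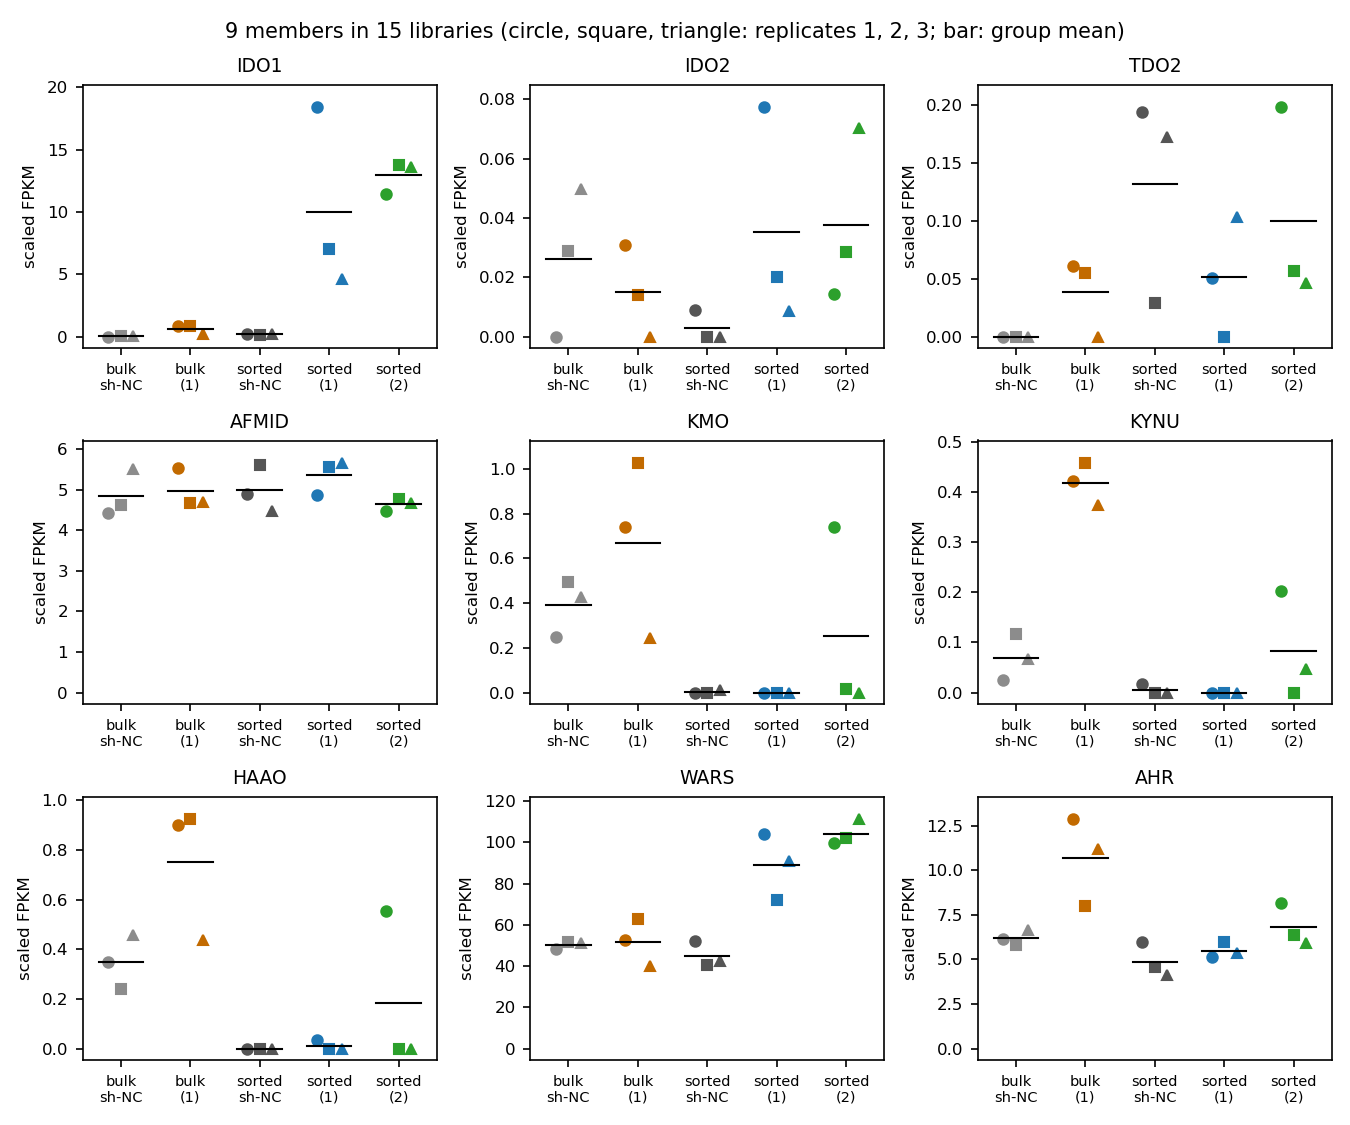
Scaled FPKM (vertical axes, each from 0) of the 9 genes in the 5 groups, with (1) and (2) for the B7-H3 shRNAs; each point is a library and each bar a group mean. IDO1 and WARS were higher in all 6 sorted knockdown libraries than in the 3 sorted sh-NC libraries, while KMO, HAAO and KYNU were at or near 0 in sorted cells except in sh-B7-H3 (2) replicate 1.

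The first comparison asked how the B7-H3 shRNAs related to tryptophan genes in sorted tumor cells. IDO1 and WARS rose with either shRNA, AFMID and AHR did not pass the test, and the other 5 members lay below the filter. Of the 9 members, 4 passed the filter, which IDO1 could do only through the knockdown libraries. Among all genes tested, 9.03% rose with sh-B7-H3 (1) and 11.7% with sh-B7-H3 (2).

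IDO1, the interferon-inducible first enzyme of the pathway (chr8:24584133-24596952, minus strand, GRCm38), was at 0.194, 0.128 and 0.190 scaled FPKM in sorted sh-NC replicates 1 to 3. It was at 18.4, 7.06 and 4.64 with sh-B7-H3 (1). With sh-B7-H3 (2) it was at 11.5, 13.8 and 13.6. All 6 knockdown libraries lay above all 3 controls, and the sh-B7-H3 (1) libraries spread more widely than the sh-B7-H3 (2) libraries. The difference was 3.03 ± 0.39 (SE) for sh-B7-H3 (1), with a limma adjusted p of 0.00136, and 3.57 ± 0.12 for sh-B7-H3 (2), with an adjusted p of 1.57e-05. These sizes rest on control levels near 0, and with a pseudocount of 0.1 they became 4.99 and 5.6.

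WARS, the cytosolic tryptophanyl-tRNA synthetase (chr12:108860030-108894175, minus strand), was at 52.2, 40.7 and 42.4 scaled FPKM in sorted sh-NC. It was at 104, 72.0 and 90.8 with sh-B7-H3 (1). With sh-B7-H3 (2) it was at 99.5, 102 and 111. The lowest knockdown library was well above the highest control. The difference was 0.96 ± 0.18 for sh-B7-H3 (1), 1.94-fold, with an adjusted p of 0.00865, and 1.20 ± 0.14 for sh-B7-H3 (2), 2.29-fold, with an adjusted p of 0.000849. WARS was thus by far the most abundant member, and IDO1 the one that moved most.

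With the 6 sorted knockdown libraries as 1 group against the 3 controls, IDO1 differed by 3.30 ± 0.33 and WARS by 1.08 ± 0.14, with limma adjusted p-values of 5.09e-05 and 0.000392. Across all genes tested in this comparison 12.6% rose, and for 13.6% all knockdown libraries lay above all controls. In exact two-sided permutation tests over these 9 libraries, IDO1 and WARS each gave p = 0.0119, the smallest that 6 against 3 allows. AHR gave 0.119 and IDO2 0.107, and the other members gave 0.357 to 0.976. Without sh-B7-H3 (2) replicate 1, the host-rich library, IDO1 differed by 3.28 and WARS by 1.07. For sh-B7-H3 (2) alone, IDO1 then differed by 3.65 and WARS by 1.23, with adjusted p-values of 8e-05 and 0.00336.

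Host cell markers moved with this contrast. The 9 macrophage markers summed to 30.8 to 44.2 in sorted sh-NC and to 61.5 to 94.6 in 5 of the 6 knockdown libraries, with 392 in sh-B7-H3 (2) replicate 1. The 7 T cell markers summed to 0.0627 to 0.0906 in sorted sh-NC, where CD3E and CD4 were listed at 0 in all 3 libraries, and to 0.240 to 0.676 in those 5 knockdown libraries. The 6 fibroblast markers summed to 31.2 to 77.5 in sorted sh-NC, to 49.0 to 81.4 with sh-B7-H3 (1) and to 114 to 152 with sh-B7-H3 (2). The 8 renal epithelial markers summed to 911 to 1110, 1523 to 1717 and 1745 to 1887 in the same groups. What part host cells had in the IDO1 and WARS differences was not tested, and a fit with the leukocyte score cannot decide it. For sh-B7-H3 (1) the score nearly followed the group, with sums of 2.00 to 4.79 in sorted sh-NC and 4.56 or more with the shRNA. For sh-B7-H3 (2) it mainly marked replicate 1, at 184 against 3.52 and 3.42 in replicates 2 and 3. The values of that fit are given as an alternative only. With the leukocyte score as a covariate, IDO1 differed by 2.75 (adjusted p = 0.0437) for sh-B7-H3 (1) and by 3.65 (adjusted p = 0.000105) for sh-B7-H3 (2). WARS kept its size but not its call for sh-B7-H3 (1), at 0.85 with an adjusted p of 0.207, and differed by 1.22 for sh-B7-H3 (2), with an adjusted p of 0.00399. WARS also missed the threshold for sh-B7-H3 (1) without sorted sh-B7-H3 (1) replicate 3, at 0.93 with an adjusted p of 0.0530.

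AHR, the ligand-activated transcription factor that binds kynurenine among other ligands (chr12:35497979-35534989, minus strand), overlapped between these groups. It was at 5.96, 4.57 and 4.12 scaled FPKM in sorted sh-NC, at 5.16, 5.96 and 5.35 with sh-B7-H3 (1), and at 8.16, 6.35 and 5.90 with sh-B7-H3 (2). The differences were 0.15 ± 0.15 (adjusted p = 0.613) and 0.41 ± 0.17 (adjusted p = 0.145). For sh-B7-H3 (2) the 95% interval was 0.01 to 0.81, and the adjusted p became 0.0351 without sorted sh-NC replicate 1. The highest AHR level among sorted libraries was in sh-B7-H3 (2) replicate 1, the library with 184 for leukocyte markers.

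AFMID, which turns N-formylkynurenine into kynurenine (chr11:117825503-117839908, plus strand), was the flattest member. It ranged from 4.42 to 5.65 scaled FPKM over all 15 libraries. Its differences were 0.09 for sh-B7-H3 (1), with a 95% interval of -0.21 to 0.39, and -0.08 for sh-B7-H3 (2), with -0.37 to 0.21. Its exons overlap TK1 on the opposite strand and GM20708 on the same strand, so reads shared with them could not be separated here.

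IDO2 and TDO2, the other enzymes of the first step, stayed close to 0. IDO2, the neighbor of IDO1 (chr8:24531892-24576414, minus strand), reached at most 0.0772 scaled FPKM, and TDO2 (chr3:81958412-81975728, minus strand) at most 0.198. In each library the values of both were whole multiples (within 0.1) of 1 smallest step after adjusting for relative depth. If a step is 1 fragment, which the files do not state, IDO2 had 0 to 6 fragments and TDO2 0 to 11 in a library. TDO2 was listed at 0 in all 3 bulk sh-NC libraries and at 0.194, 0.0292 and 0.173 in sorted sh-NC. Of the 3 enzymes for the first step, IDO1 alone reached 1 scaled FPKM in any library.

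**Figure D2:**
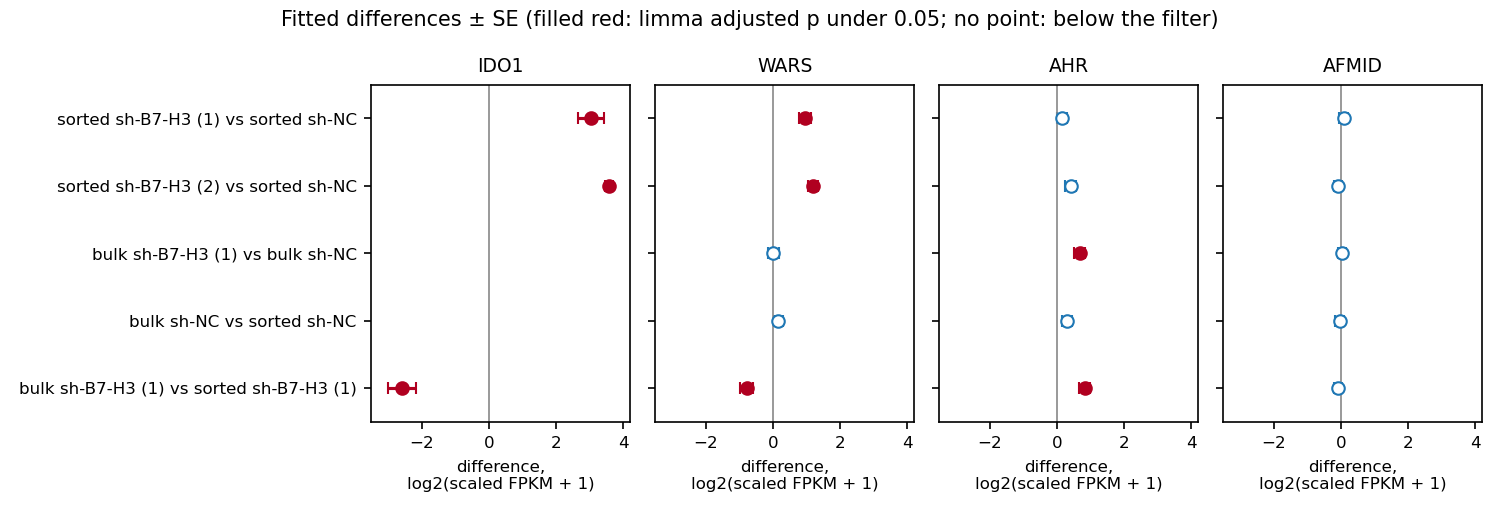
Fitted differences (horizontal axes, log2(scaled FPKM + 1), error bars SE) of the 4 members past the filter in 5 comparisons. IDO1 and WARS were higher with both shRNAs in sorted cells, WARS lay at 0.02 in bulk tumors, AHR was higher in bulk sh-B7-H3 (1) tumors, and AFMID stayed within 0.1 of 0.

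The shRNAs were then set against each other. No member passed the test between sorted sh-B7-H3 (1) and sorted sh-B7-H3 (2), a comparison in which 3.4% of all genes tested did so. Replicate numbers marked libraries that deviated together here, and with the replicate block 16.6% of genes passed and still no member. The difference, (1) minus (2), was -0.54 for IDO1, with a 95% interval of -1.45 to 0.38. For WARS it was -0.24, with an interval of -0.57 to 0.09, and for AHR it was -0.26, with -0.55 to 0.04. Without sh-B7-H3 (1) replicate 1, the highest IDO1 library, the IDO1 difference passed at -1.04 with an adjusted p of 0.0425. Both shRNAs were compared with the same 3 sh-NC libraries, so their differences from control are not independent.

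In bulk tumors with sh-B7-H3 (1), AHR rose over sh-NC, and WARS and AFMID did not pass the test. IDO1 and the 5 remaining members were below the filter. Among all genes tested, 12.8% rose in this comparison, and 1 of the 3 members past the filter did.

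AHR was at 6.14, 5.82 and 6.63 scaled FPKM in bulk sh-NC and at 12.9, 8.03 and 11.2 in bulk sh-B7-H3 (1). The groups did not overlap, as for the 24.4% of genes past the filter that were higher in this way. The difference was 0.68 ± 0.16, 1.60-fold, with an adjusted p of 0.0308. The call was lost on FPKM as deposited (0.71, adjusted p = 0.203), under quantile normalization (0.59, adjusted p = 0.0581), with no filter (adjusted p = 0.0597) and on leaving out any library but bulk sh-B7-H3 (1) replicate 2. Fibroblast markers, 6 genes, summed to 81.1 to 156 in bulk sh-NC and to 265 to 635 in bulk sh-B7-H3 (1), and 5 skeletal muscle markers to 2.50 to 18.3 and 28.7 to 599. The 7 T cell markers summed to 1.63 to 2.65 and 5.93 to 19.8, and the 6 dendritic cell markers to 2.32 to 2.82 and 3.13 to 8.25. The sum of 5 mast cell markers was lower with the shRNA, at 7.68 to 13.2 in sh-NC against 1.66 to 3.22. Among these 5, CPA3, MCPT4 and TPSB2 fell, while KIT rose by 0.53. The part of these cells in the AHR, IDO1 and KYNU changes in bulk tumors was not tested.

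WARS was at 48.4, 51.6 and 51.0 in bulk sh-NC and at 52.5, 63.0 and 39.9 in bulk sh-B7-H3 (1). The knockdown libraries lay on both sides of the controls. The difference was 0.02, with a 95% interval of -0.36 to 0.40, beside 0.96 fitted in sorted cells for this shRNA. The direct test between the materials, given below, did not pass for WARS.

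IDO1 was at 0, 0.0624 and 0.0718 in bulk sh-NC and at 0.871, 0.821 and 0.214 in bulk sh-B7-H3 (1). The groups did not overlap, as for the 21.6% of genes above 0 that were higher in this way, yet all 6 values were under 1 scaled FPKM. With no filter, where 7.06% of genes rose, the difference was 0.62 with an adjusted p of 0.0733. The highest bulk IDO1 value was well below the lowest sorted knockdown value of 4.64.

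The effect of sh-B7-H3 (1) was compared between the materials as an interaction term. The sorted minus bulk difference was 2.41 ± 0.49 for IDO1 (adjusted p = 0.0636), 0.94 ± 0.25 for WARS (adjusted p = 0.152) and -0.53 ± 0.23 for AHR (adjusted p = 0.332). No member passed, in a test that called 0.464% of all genes. IDO1 could enter this test only through the sorted sh-B7-H3 (1) libraries, where it was high. With no adjustment for multiple tests, p was 0.000378 for IDO1, 0.00281 for WARS and 0.0397 for AHR. The IDO1 interaction passed on FPKM as deposited, where its adjusted p was 0.000464, and under quantile normalization, in the fit of all 15 libraries and with the leukocyte score as a covariate, where it was 0.0455 to 0.0495. The leukocyte score mostly followed the materials, so the fit with it cannot decide what part host cells had. The IDO1 interaction also passed in additional fits without sorted sh-B7-H3 (1) replicate 1 (1.91, adjusted p = 0.0271) and without replicate 3 (2.80, adjusted p = 0.0314).

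The materials were also compared directly. In sh-B7-H3 (1) tumors, IDO1 was lower in bulk than in sorted cells by -2.58 ± 0.42 (adjusted p = 0.00453) and WARS by -0.78 ± 0.20 (adjusted p = 0.0194). IDO1 could pass the filter here only through the sorted libraries, where it was high. AHR was higher in bulk by 0.83 ± 0.17 (adjusted p = 0.00885). In this comparison 21.1% of genes were higher and 17.1% lower in bulk. WARS missed the threshold without bulk sh-B7-H3 (1) replicate 1 (adjusted p = 0.0592) or without sorted sh-B7-H3 (1) replicate 1 (0.0755) or 3 (0.0518). AHR missed it on FPKM as deposited, at 0.57 with an adjusted p of 0.0739. In sh-NC tumors no member past the filter differed between bulk and sorted cells, where 16.9% of genes did. WARS differed by 0.16 and AHR by 0.30, with 95% intervals of -0.15 to 0.48 and -0.04 to 0.64.

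KMO, HAAO and KYNU, which take kynurenine further, were found mainly in bulk tumors. KMO hydroxylates kynurenine, HAAO opens the ring of 3-hydroxyanthranilate, and KYNU lies between them. RefSeq's promoter table (GRCm38.p6) held 4 of the 9 members, TDO2, KMO, AFMID and HAAO. The promoters of KMO and HAAO are shown because these genes were high and low in the same libraries. Capitals mark GCGTG, the core that AHR with its partner ARNT binds, searched on both strands. Each run has 250 bases before an annotated start and 50 from it. The KMO run is at chr1:175631943-175632242 on the plus strand, and the HAAO run at chr17:83846741-83847040 on the minus strand. The HAAO run lies inside the span of the gene (chr17:83831348-83848981), so its start is not the outer end of that span.
KMO promoter: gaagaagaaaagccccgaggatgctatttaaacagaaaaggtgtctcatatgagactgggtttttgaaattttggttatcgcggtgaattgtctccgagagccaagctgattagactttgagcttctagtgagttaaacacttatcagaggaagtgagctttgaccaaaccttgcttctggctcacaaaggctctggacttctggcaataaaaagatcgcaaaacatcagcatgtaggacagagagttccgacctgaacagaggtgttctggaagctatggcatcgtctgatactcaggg
HAAO promoter: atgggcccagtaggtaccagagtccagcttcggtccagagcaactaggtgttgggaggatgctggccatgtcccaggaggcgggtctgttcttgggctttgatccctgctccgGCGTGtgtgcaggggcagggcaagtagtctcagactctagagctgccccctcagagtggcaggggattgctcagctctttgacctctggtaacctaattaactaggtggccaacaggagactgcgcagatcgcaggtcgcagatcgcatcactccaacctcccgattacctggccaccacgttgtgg
HAAO and TDO2 each held 1 GCGTG core, in HAAO at positions -137 to -133 from the start of this run, and KMO and AFMID held none. Of all 32851 promoters of this length, 32.4% held that core. The interferon letters TTCNNNGAA (GAS) and GAAA, any 2 bases, GAAA (ISRE core), also searched on both strands, were in none of the 4 and in 8.30% and 3.44% of all promoters. These matches are descriptions of the windows and show no binding.

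KMO (chr1:175632193-175660853, plus strand) was at 0.247, 0.495 and 0.428 scaled FPKM in bulk sh-NC and at 0.741, 1.02 and 0.243 in bulk sh-B7-H3 (1). In 8 of the 9 sorted libraries it was at 0 to 0.0176, and in sorted sh-B7-H3 (2) replicate 1 it was at 0.739. In steps of the smallest value, bulk libraries held 10 to 60, sorted sh-B7-H3 (2) replicate 1 held 42, and the other sorted libraries held 0 or 1. The bulk groups overlapped.

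HAAO (chr17:83831348-83848981, minus strand) was at 0.348, 0.239 and 0.459 in bulk sh-NC and at 0.899, 0.923 and 0.438 in bulk sh-B7-H3 (1). Sorted libraries were listed at 0 apart from 0.0355 in sh-B7-H3 (1) replicate 1 and 0.555 in sh-B7-H3 (2) replicate 1. The same sorted library was again the one at bulk level, with 14 steps against 6 to 24 in bulk libraries.

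KYNU (chr2:43555258-43683048, plus strand) was at 0.0260, 0.116 and 0.0672 in bulk sh-NC and at 0.422, 0.457 and 0.374 in bulk sh-B7-H3 (1). The groups did not overlap, as for 21.6% of genes above 0 in this comparison. In sorted cells it was 0 in all 3 sh-B7-H3 (1) libraries and in 2 of the sh-NC libraries, and highest, at 0.202, in sh-B7-H3 (2) replicate 1. Sorted sh-NC replicate 1 was at 0.0176 and sorted sh-B7-H3 (2) replicate 3 at 0.0470.

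These 3 genes lay below the filter in every comparison, and were fitted only with no filter. In sh-NC tumors KMO was then higher in bulk than in sorted cells by 0.47 ± 0.07 (limma adjusted p = 0.00899) and HAAO by 0.43 ± 0.06 (adjusted p = 0.00737), while IDO1 was lower by -0.16 ± 0.04 (adjusted p = 0.0375), against 9.51% of genes higher and 3.89% lower. In sh-B7-H3 (1) tumors the bulk minus sorted differences were 0.71 for KMO, 0.78 for HAAO and 0.50 for KYNU, with adjusted p-values of 0.0350, 0.0104 and 0.000727, where 16.0% of genes were higher in bulk. Between the bulk groups KYNU rose by 0.41 ± 0.04 (adjusted p = 0.0114), as 7.06% of genes did, and HAAO and KMO gave adjusted p-values of 0.124 and 0.440. For KYNU the sh-B7-H3 (1) effect, sorted minus bulk, was -0.42 ± 0.04 with an adjusted p of 0.0100, in a fit where 0.254% of genes were lower. KYNU was at 0.0176 or less in every sorted library of that fit, so the value mainly restates the bulk rise. Libraries at exactly 0 add no spread to its SE.

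**Figure D3:**
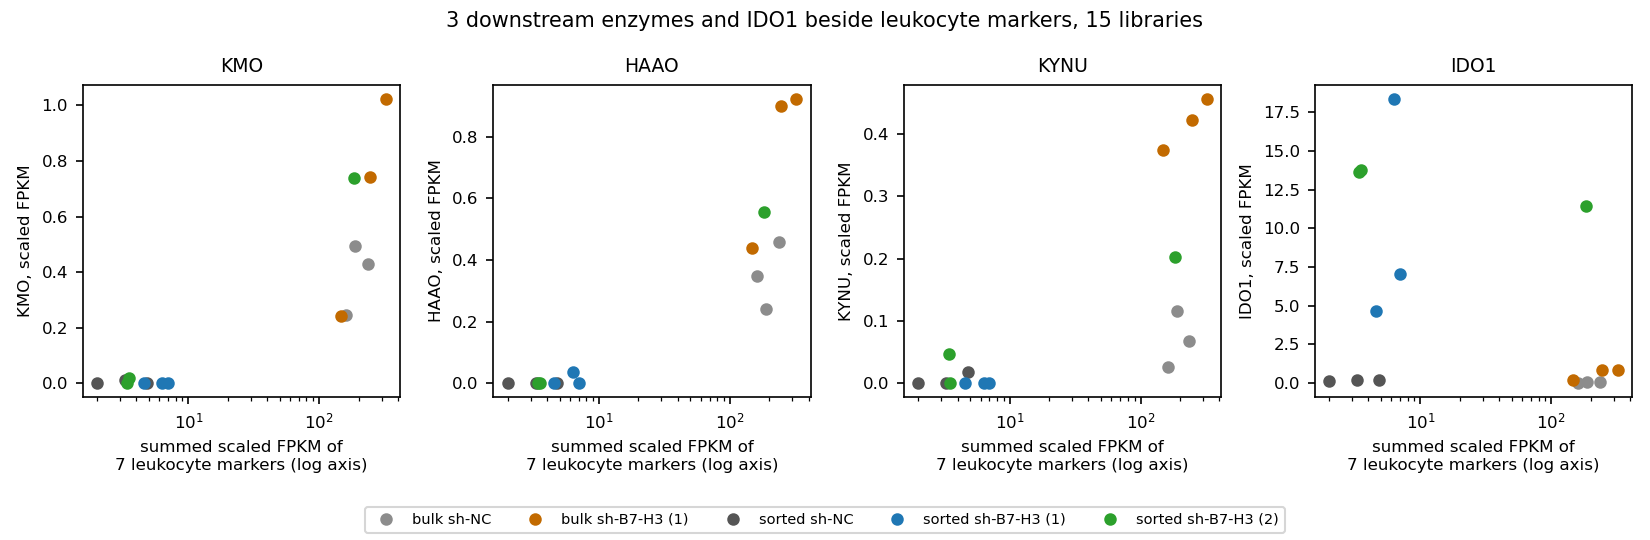
Scaled FPKM of KMO, HAAO, KYNU and IDO1 (vertical axes) against the summed scaled FPKM of 7 leukocyte markers (horizontal axes, log scale), with 1 point per library colored by group. KMO, HAAO and KYNU reached 0.2 or more only in libraries with leukocyte sums of 148 or more, while IDO1 was highest in sorted knockdown libraries, 5 of the 6 with sums of 7.0 or less.

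The leukocyte markers stood beside these genes library by library. All 7 libraries with a leukocyte sum of 148 or more had KMO at 0.243 or more, and the 8 with a sum of 7.0 or less had KMO at 0.0176 or less. IDO1 did not follow that split. It was at 11.5 in the sorted library with a leukocyte sum of 184 and at 13.8 and 13.6 in the same group with sums of 3.52 and 3.42. What part host cells had in the KMO, HAAO and KYNU levels was not tested.

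The genes around the members were described from lists. Of 8 further kynurenine and NAD genes, 3 passed the filter in sorted cells, GOT2, KYAT1 and NADSYN1, and none passed the test with either shRNA alone. Over both shRNAs NADSYN1, the last enzyme of NAD synthesis from this pathway, rose by 0.38 ± 0.11 (SE) with an adjusted p of 0.0336, from 3.31 ± 0.309 to 4.61 scaled FPKM in each knockdown group. AADAT, ACMSD, ALDH8A1 and QPRT were each at 0.0824 or less in every group mean.

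The monoamine oxidases MAOA and MAOB, which degrade serotonin and other amines, fell in sorted cells with both shRNAs, and 2 of the 4 tested genes in a list of 8 for other routes of tryptophan use did so. The other 2, INMT and WARS2, did not pass. MAOB was 34.5 ± 1.83 (SD, n = 3) scaled FPKM in sorted sh-NC, 15.2 ± 2.44 with sh-B7-H3 (1) and 5.38 ± 0.877 with sh-B7-H3 (2). The differences were -1.14 (adjusted p = 0.00125) and -2.48 (adjusted p = 5.5e-05), and sh-B7-H3 (1) stayed 1.34 above sh-B7-H3 (2), with an adjusted p of 0.00611, where 1.76% of genes were higher with (1). MAOA was 90.8 ± 20.9, 52.5 ± 1.22 and 34.5 ± 3.65 in the same groups, and fell in bulk tumors as well, by -1.30 (adjusted p = 0.00292). Among all genes tested 4.38% fell with sh-B7-H3 (1), 7.44% with sh-B7-H3 (2) and 8.52% in bulk. The serotonin enzymes TPH1, TPH2 and DDC stayed at 0.0653 or less in every group mean.

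Tryptophan carriers did not pass the test in sorted cells. Of 8 genes, 3 were tested there, SLC7A5 and SLC3A2, which form the main large amino acid exchanger, and SLC16A10. The list had a median difference of 0.21 with sh-B7-H3 (1) and -0.11 with sh-B7-H3 (2). SLC7A8, a further amino acid exchanger, was at 3.57 in bulk and 0.0313 in sorted sh-NC, a difference of 2.14 with an adjusted p of 1.25e-05, where 10.4% of genes were higher in bulk. SLC36A4 fell in bulk sh-B7-H3 (1) tumors by 0.47 on the log2 scale (adjusted p = 0.0449).

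AHR's targets were read next to AHR itself. Of 7 AHR target genes 3 were tested, CYP1B1, NQO1 and TIPARP. None rose over sh-NC with either shRNA in sorted cells or in bulk tumors. Of all genes tested 9.03% rose with sh-B7-H3 (1), 11.7% with sh-B7-H3 (2) and 12.8% in bulk. A count of 0 among 3 is near these shares and gives no reading of AHR activity. TIPARP did not pass, at 0.05 with sh-B7-H3 (1) and -0.04 with sh-B7-H3 (2) in sorted cells, and at 0.01 in bulk tumors. CYP1B1, a xenobiotic oxidase, fell in sorted cells by -0.83 with sh-B7-H3 (1) and by -0.69 with sh-B7-H3 (2), with adjusted p-values of 0.00811 and 0.00591. NQO1, a quinone reductase that NRF2 also induces, fell with sh-B7-H3 (2) by -1.63 (adjusted p = 0.00592) and in bulk tumors by -1.39 (adjusted p = 0.00212). Falls were called for 4.38% of all genes tested with sh-B7-H3 (1), 7.44% with sh-B7-H3 (2) and 8.52% in bulk. CYP1A1, CYP1A2 and AHRR, the classical AHR targets, were at 0.0241 or less in every group mean, bulk sh-B7-H3 (1) tumors included.

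WARS was then placed among the other cytosolic aminoacyl-tRNA synthetases, the enzymes that charge tRNAs with the remaining amino acids. All 19 other genes of this list were tested in sorted cells. None passed with sh-B7-H3 (1) or with sh-B7-H3 (2), where 5 and 5 had an unadjusted limma p under 0.05. Of all genes tested, 2772 of 11163 and 3559 of 11243 had such an unadjusted p. By adjusted p 9.03% rose and 4.38% fell with sh-B7-H3 (1), and 11.7% rose and 7.44% fell with sh-B7-H3 (2). The 19 synthetases had a median difference of -0.13 with each shRNA, against 0.00 and 0.01 over all genes tested. They ranged from -0.33 (YARS) to 0.33 (KARS) with sh-B7-H3 (1) and from -0.49 (DARS) to 0.36 (FARSB) with sh-B7-H3 (2), all below the 0.96 and 1.20 of WARS. With both shRNAs as 1 group KARS rose by 0.32 (adjusted p = 0.0207) and YARS fell by 0.36 on the log2 scale (adjusted p = 0.0197), where 7.92% of all genes fell. WARS2, the mitochondrial tryptophanyl-tRNA synthetase, was 1.86 scaled FPKM in sorted sh-NC, 1.94 with sh-B7-H3 (1) and 2.47 with sh-B7-H3 (2), and did not pass.

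**Figure D4:**
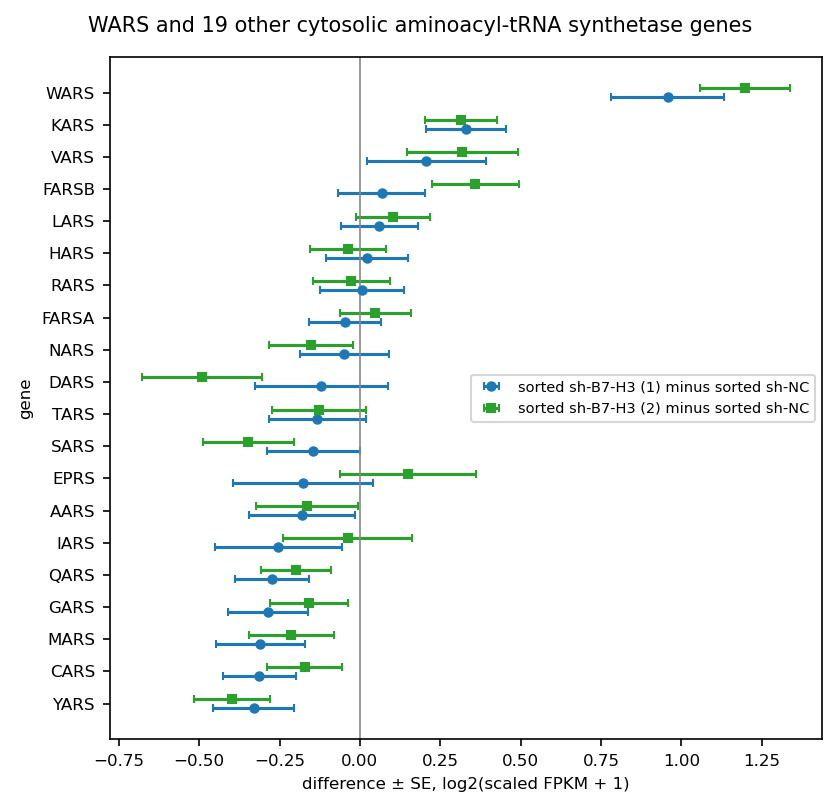
Differences from sorted sh-NC (horizontal axis, log2(scaled FPKM + 1), error bars SE) for WARS and 19 other cytosolic aminoacyl-tRNA synthetase genes (vertical axis), with circles for sh-B7-H3 (1) and squares for sh-B7-H3 (2). WARS lay at 0.96 and 1.20, and the others between -0.49 and 0.36.

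In bulk tumors, where 8.52% of all genes tested fell, part of the synthetases and of the amino acid response genes did so. Of the 19 synthetases 5 fell with sh-B7-H3 (1), CARS, MARS, QARS, SARS and YARS, by 0.37 to 0.62 on the log2 scale, and none rose. Their median was -0.23, against 0.02 over all genes tested. Of 9 amino acid response genes, the program that the kinase EIF2AK4 (GCN2) starts when uncharged tRNA builds up, 5 fell, ASNS, ATF4, CHAC1, DDIT3 and TRIB3. ASNS, asparagine synthetase, was 50.4 ± 4.82 scaled FPKM in bulk sh-NC and 30.5 ± 4.32 in bulk sh-B7-H3 (1), a difference of -0.71 (adjusted p = 0.0123). In sorted cells none of the 9 rose with either shRNA. Among all genes tested 9.03% rose with sh-B7-H3 (1) and 11.7% with sh-B7-H3 (2), so 0 of 9 is near these shares. CHAC1, a glutathione-degrading enzyme, fell with both, by -0.75 (adjusted p = 0.00764) and -0.76 (adjusted p = 0.00398), and ATF5 with sh-B7-H3 (2) by -0.53 (adjusted p = 0.0234). The shares of all genes tested that fell were 4.38% with sh-B7-H3 (1) and 7.44% with sh-B7-H3 (2).

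Among interferon-γ signalling genes, IRF1 and SOCS1, a feedback inhibitor, rose in sorted cells with both shRNAs, and IFNGR2, a receptor chain, rose with sh-B7-H3 (1). IRF1, a transcription factor of the IDO1 gene, was 7.08 ± 0.963 scaled FPKM in sorted sh-NC, 58.5 ± 22.2 with sh-B7-H3 (1) and 60.5 ± 14.6 with sh-B7-H3 (2). In bulk tumors IRF1 rose from 10.7 ± 0.545 to 31.2 ± 12.4, a difference of 1.38 (adjusted p = 0.0193).

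The genes most like each member over the 9 sorted libraries were found among 11424 genes by Pearson's r of log2 values. For IDO1 they were GBP4 (0.997), C130026I21RIK (0.992) and IFNLR1 (0.991), and for WARS GPRC5A (0.991), TAPBP (0.989) and SERPINA3F (0.988). IDO1 and WARS had r = 0.959 with each other. These points share the split between 3 control and 6 knockdown libraries, so any gene that rose in the knockdown libraries scores high. AHR was most like PAXIP1 (0.970), and AFMID most like RPL26 (0.908).

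The order of the group means differed between members. IDO1 ran from sorted sh-B7-H3 (2) (13.0) and sorted sh-B7-H3 (1) (10.03), which overlapped, to bulk sh-B7-H3 (1) (0.636), sorted sh-NC (0.171) and bulk sh-NC (0.0447), each apart from its neighbor. WARS had the same groups at the top, at 104 and 88.9, and the other 3 overlapped at 51.8, 50.3 and 45.1. AHR was highest in bulk sh-B7-H3 (1), at 10.7, and every neighboring pair of its groups overlapped, as did those of AFMID. HAAO and KMO were highest in bulk sh-B7-H3 (1), at 0.753 and 0.669, with overlap between all neighbors.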

How the data were processed

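The authors deposited 1 FPKM value per gene and library, for 24917 entries, and a further table of log2(FPKM + 1) for 1000 genes, of which 999 matched the first table within 8.91e-08 and only IDO1 is a member. Per the labels the build is mm10. The paper names single-end sequencing of 75 cycles and the VIPER pipeline. The aligner, counter and annotation are not given in the sources used here, and the labels and the paper name different library kits. Positions are from RefSeq (GRCm38.p6), and exon overlaps from GENCODE M21.

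From the FPKM table, 26 entries with date symbols were left out. Values were divided by median-ratio size factors (0.650 to 1.18) over 9872 genes with at least 1 FPKM in all 15 libraries, since MIR6236 distorts FPKM totals. Log2 values with a pseudocount of 1 were fitted by limma 3.58.1 (R 4.3.3, trend option on) over the groups compared, after a filter of 1 scaled FPKM in 3 libraries, with Benjamini-Hochberg adjustment. The fit was tested on simulated data. Exact permutation tests went over every split of the libraries in Python 3.11.15 (numpy 2.4.6, pandas 2.3.3), and figures used matplotlib 3.10.9.

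Replicates correlated with r of 0.906 to 0.986 over 12194 genes, and no 2 libraries were identical. Same-numbered libraries deviated together only between sorted sh-B7-H3 (1) and (2) (r of 0.209, 0.230 and 0.209), a hint from the data and not from the labels. Named genes are all members plus fixed lists, with values for those called or needed by a result, and for each member past the filter the most like genes. Members and lists were chosen with earlier results of these data known. Alternatives changed the scaling, pseudocount, filter, block, libraries fitted and covariate, or left out each library. Fits without 1 sorted knockdown library that kept the filter of all libraries were added after seeing the data. Some members of the AHR partner and interferon-γ signalling lists are not reported here, so no counts are given for those lists.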

Additional observations from a re-analysis of the deposited data

Results flagged for a closer look

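Of the 9 members, 3 had a library that stood far from the others among the 6 sorted knockdown libraries, by the ratio of its gap to the whole range (Dixon's 95% limit for 6 values). In each case it was sorted sh-B7-H3 (2) replicate 1: KMO at 0.739 scaled FPKM (ratio 0.976), HAAO at 0.555 (0.936) and KYNU at 0.202 (0.767). That library had a leukocyte marker sum of 184 against at most 7.0 in the other 5. AHR was also highest there, at 8.16, within the limit (0.601). The 5% rate of this limit is for normally spread values. It does not apply to these 3 genes, which were at 0 in most of the 6 libraries, and 1 library decided all 3.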

How the results depend on the processing

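The IDO1 and WARS differences in sorted cells kept their direction under every alternative that gave a value. IDO1 passed in all of them and WARS in all for sh-B7-H3 (2) and for both shRNAs, while WARS with sh-B7-H3 (1) missed the threshold with the leukocyte score as a covariate and without sorted sh-B7-H3 (1) replicate 3. Requiring 1 scaled FPKM in every library removes IDO1, so that 1 member passed for sh-B7-H3 (1), for sh-B7-H3 (2) and for both. With the leukocyte covariate 1 passed for sh-B7-H3 (1). Leaving out 1 library gave 0 to 2 members for sh-B7-H3 (1), 1 to 3 for sh-B7-H3 (2) and 0 to 1 between the shRNAs. For each shRNA against sh-NC, IDO1 has no value once a library of that shRNA is left out and the filter is set again. With the filter of all libraries, an alternative chosen after seeing the data, IDO1 passed each time.

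In bulk tumors 0 members passed on FPKM as deposited and under quantile normalization, and 0 to 1 on leaving out 1 library. Between bulk and sorted sh-NC 3 passed with no filter, and 0 to 1 on leaving out 1 library, AHR without sorted sh-NC replicate 1 (0.43, adjusted p = 0.0226). Between bulk and sorted sh-B7-H3 (1) 6 passed with no filter, 0 with the leukocyte covariate (a void fit, since the score follows the material) and 1 to 3 on leaving out 1 library. For the interaction 1 passed on FPKM as deposited, under quantile normalization, with no filter, in the fit of all 15 libraries, with the leukocyte covariate (a fit limited for the same reason) and, added later, without sorted sh-B7-H3 (1) replicate 1 or 3.

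Signs that turned were all of differences that did not pass. With the leukocyte covariate AHR became -0.084 for sh-B7-H3 (1), WARS -0.11 in bulk, and WARS -1.82 and AHR -1.94 between bulk and sorted sh-NC, where the fit is void for the same reason. AFMID became 0.11 on FPKM as deposited for sh-B7-H3 (2), and under quantile normalization -0.12 for both shRNAs and -0.11 in bulk. Leaving out 1 library moved AFMID from -0.061 to 0.075 for both shRNAs, -0.037 to 0.11 in bulk, -0.11 to 0.038 between bulk and sorted sh-NC and -0.021 to 0.13 for the interaction, and WARS from -0.13 to 0.19 in bulk. The cause was not tested.

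The replicate block changed no call on a member. It moved the genes called from 1497 to 915 for sh-B7-H3 (1), 2150 to 1395 for sh-B7-H3 (2), 382 to 1864 between the shRNAs, 2520 to 1413 in bulk and 56 to 24 for the interaction, and the others by less than 1.5 times. Outside the pair of sorted knockdown groups, same-numbered libraries had deviation correlations of -0.463 to 0.443. Under the other alternatives, leaving out libraries included, genes called ranged from 565 to 2146 for sh-B7-H3 (1), 962 to 3614 for sh-B7-H3 (2), 1414 to 3197 for both, 35 to 1035 between the shRNAs, 546 to 4659 in bulk, 0 to 4436 between bulk and sorted sh-NC, 7 to 4562 between bulk and sorted sh-B7-H3 (1) and 12 to 128 for the interaction. Read depth is not in the files, and members under 1 scaled FPKM rest on few fragments.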
